A study of Mus musculus with 6 samples.

Results

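The 10 genes described here belong to the stress responses of the endoplasmic reticulum (ER) and of translation, and they were taken by symbol from the 23345 genes of the deposited table. They were Hspa5, Hsp90b1, Pdia6, Creld2, Herpud1, Xbp1, Atf4, Ddit3, Ppp1r15a and Slc7a11, and 10 of 10 were present. Their RNA was measured in lung endothelial cells of C57BL/6JOlaHsd mice kept for 12 weeks on ND, the normal diet, or on HFD, the high fat diet. The 3 ND libraries came from mice 1, 3 and 4 and the 3 HFD libraries from mice 2, 4 and 5, so the shared number 4 names a different animal on each diet. No transgene, deletion or drug is given for either diet, and the age and sex of the mice and the makeup of the diets were not given in the sources used here. Cells from digested lungs were attached to coated plates, depleted with beads against CD16/CD32 and selected with beads against ICAM-2. They were plated once more on collagen I before the RNA was taken, so the values describe endothelial cells after a time in culture. Each library was made from 500 cells.

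Proteins that enter the ER fold there with the help of chaperones, and an excess of unfolded protein starts the unfolded protein response. Its 3 sensors are PERK (gene Eif2ak3), IRE1 alpha (Ern1) and ATF6. IRE1 splices the Xbp1 mRNA, which gives an active transcription factor, and ATF6 is cut in the Golgi to release another, and both raise chaperone and degradation genes. PERK phosphorylates the translation factor eIF2 alpha, as do kinases that sense viral RNA, amino acid shortage and haem shortage, and this shared arm is the integrated stress response. Phosphorylated eIF2 alpha lowers bulk translation but favours that of ATF4, whose targets include Ddit3, which encodes CHOP, and genes of amino acid uptake. Ppp1r15a encodes GADD34, which brings protein phosphatase 1 to eIF2 alpha and so restores translation. Endothelial cells secrete matrix, coagulation and surface proteins through this compartment.

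The sequences in front of the genes are shown because short elements there mark the arms of the response that a gene is known to answer. RefSeq gave 1 promoter window for each of the 10 members on GRCm38.p6, running from 250 bases before to 50 bases after the transcript start, and 32851 windows in all. The search covered 4 elements on both strands, and none of the matches in these members overlapped another. The ER stress response element, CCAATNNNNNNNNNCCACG, is the site known for ATF6 and XBP1 together with NF-Y, and 0.119% of all windows held it. A shorter form, the ER stress response element II, ATTGGNCCACG, was in 0.0365% of windows. The C/EBP-ATF element, TGATGNAA, known for ATF4 and its partners, was in 3.97%, and the palindromic cAMP response element, TGACGTCA, was in 1.79%. The 250 bases before the start are printed 5′ to 3′ on the strand of the gene for the 7 members with a match, and capitals mark the matches.
Hspa5, chr2:34771840-34772089, plus strand: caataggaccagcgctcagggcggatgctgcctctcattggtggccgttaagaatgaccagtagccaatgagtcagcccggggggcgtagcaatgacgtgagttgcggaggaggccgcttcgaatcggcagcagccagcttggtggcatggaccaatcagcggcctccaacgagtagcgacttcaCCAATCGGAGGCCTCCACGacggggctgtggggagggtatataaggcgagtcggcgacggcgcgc
Hsp90b1, chr10:86705445-86705694, minus strand: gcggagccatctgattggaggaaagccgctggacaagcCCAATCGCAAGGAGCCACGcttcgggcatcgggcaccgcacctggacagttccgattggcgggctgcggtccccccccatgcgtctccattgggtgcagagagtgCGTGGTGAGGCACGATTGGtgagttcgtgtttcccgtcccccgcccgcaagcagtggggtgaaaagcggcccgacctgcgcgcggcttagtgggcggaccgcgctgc
Pdia6, chr12:17266339-17266588, plus strand: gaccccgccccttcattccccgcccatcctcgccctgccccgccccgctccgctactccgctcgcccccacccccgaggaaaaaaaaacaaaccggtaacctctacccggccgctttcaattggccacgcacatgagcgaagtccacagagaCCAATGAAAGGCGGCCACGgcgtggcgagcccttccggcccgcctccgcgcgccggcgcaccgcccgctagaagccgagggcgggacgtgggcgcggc
Creld2, chr15:88819396-88819645, plus strand: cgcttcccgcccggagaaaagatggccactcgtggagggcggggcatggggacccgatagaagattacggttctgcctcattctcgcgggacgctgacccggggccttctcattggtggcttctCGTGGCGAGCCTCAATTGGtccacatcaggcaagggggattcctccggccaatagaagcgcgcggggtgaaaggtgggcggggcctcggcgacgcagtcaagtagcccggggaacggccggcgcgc
Herpud1, chr8:94386179-94386428, plus strand: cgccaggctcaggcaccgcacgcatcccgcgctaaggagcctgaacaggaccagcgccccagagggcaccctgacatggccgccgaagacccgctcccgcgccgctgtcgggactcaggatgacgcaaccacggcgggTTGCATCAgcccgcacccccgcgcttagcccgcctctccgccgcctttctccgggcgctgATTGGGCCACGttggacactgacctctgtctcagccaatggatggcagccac
Ppp1r15a, chr7:45526269-45526518, minus strand: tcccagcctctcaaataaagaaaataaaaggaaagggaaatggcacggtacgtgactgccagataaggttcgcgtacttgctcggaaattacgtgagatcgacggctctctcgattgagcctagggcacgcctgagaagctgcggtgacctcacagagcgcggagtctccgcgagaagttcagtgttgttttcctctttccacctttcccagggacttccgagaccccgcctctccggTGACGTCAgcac
Slc7a11, chr3:50443614-50443863, minus strand: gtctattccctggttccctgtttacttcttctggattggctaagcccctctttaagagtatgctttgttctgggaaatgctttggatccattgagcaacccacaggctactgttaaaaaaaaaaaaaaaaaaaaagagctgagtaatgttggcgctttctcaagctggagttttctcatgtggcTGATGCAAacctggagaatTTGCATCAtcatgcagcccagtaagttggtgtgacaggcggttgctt
The members with every HFD library above every ND library were 5, and 4 of them, namely Hspa5, Hsp90b1, Pdia6 and Creld2, held the ER stress response element. Hsp90b1 held 2 copies, 1 on each strand. The fifth, Ppp1r15a, held none of it and had a cAMP response element at 12 to 5 bases before its start. Herpud1 had the short form at 52 to 42 bases before the start and a C/EBP-ATF element on the other strand. Slc7a11 had a C/EBP-ATF element on each strand. The windows of Xbp1, Atf4 and Ddit3 held none of the 4 letter patterns. The search took exact letters in these windows only, so sites further away or with other letters were not looked for. These 3 genes lie on the plus strand of GRCm38 at chr11:5520659-5525893, chr15:80255184-80257541 and chr10:127290774-127296288 in GENCODE M21. Over all 15655 tested genes, 8.12% were higher without overlap, and of the 10696 with a window 8.92% were. Among the 18 tested genes with an ER stress response element, matched by current symbol only, 4 were higher in every HFD library, and these were the 4 members. The other 14 had a median log2 difference of 0.02, none higher without overlap and 1 lower, and they included Calr at 0.11, Canx at 0.46, Dnajc3 at 0.07 and Syvn1 at −0.85. Ero1b also holds the element but was tested under its older symbol Ero1lb, so it is not among the 18. Its log2 difference was 0.24, with overlap between the diets. Outside the members, 370 tested genes held a cAMP response element, 10.8% of them higher and 5.95% lower without overlap, with a median of 0.20. The 315 with a C/EBP-ATF element had 5.71%, 4.76% and 0.01, and all genes with a window 8.92%, 5.21% and 0.10. The 9 with the short form had 1 higher, 0 lower and a median of 0.52. A match of letters is a description and does not show that a factor was bound.

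**Figure D1:**
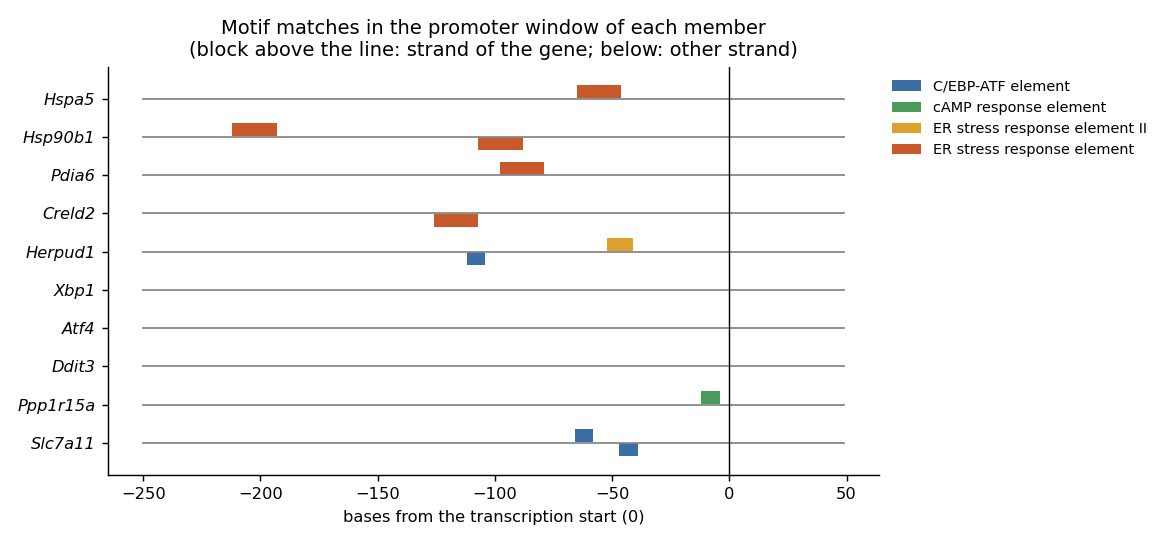
Matches of the 4 searched elements in the RefSeq promoter windows of the 10 members. The horizontal axis is the distance from the transcript start in bases, from 250 before to 50 after, colours stand for the elements, and blocks below a line are on the strand opposite to the gene. The 4 chaperone and folding genes at the top carry the ER stress response element, and Xbp1, Atf4 and Ddit3 carry no match.

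The libraries held 13.8 to 17.2 M reads on ND and 18.8 to 27.9 M on HFD, so each HFD library was deeper than each ND library. Thinning the reads of every library to the depth of the shallowest moved no member's log2 difference by more than 0.10 (Slc7a11, from −0.62 to −0.72). All 12 pan-endothelial markers had values, with a summed level of 136657 to 174754 normalized counts on ND and 175923 to 210619 on HFD. Of these 12, 9 were higher and 3 lower on HFD, with a median log2 difference of 0.41, beside 0.05 for all tested genes. Without overlap, 5 were higher and 1 lower, against 8.12% and 5.93% of all tested genes. DESeq2 called 1 of the 12, in the higher direction. Markers of other cell types had values too, and each list had a median log2 difference below 0. Of those tested, 2 epithelial markers were higher and 9 lower (median −1.12), and 2 macrophage markers were higher and 5 lower (−1.21). Lymphocyte and plasma cell markers had 0 and 3 (−2.29), mural and fibroblast 5 and 9 (−1.07) and lymphatic 0 and 7 (−1.88). Without overlap, 0 were higher and 1, 0, 1, 2 and 2 lower, in this order. Alveolar and airway epithelial markers, 12 in number, summed to 4442 to 103583 on ND, with Sftpc at 70918 in ND 3, and to 4813 to 18582 on HFD. The other ND libraries had 4442 and 7755, the lower of them below every HFD library. Macrophage markers, 7 of 12 with values, summed to 527 to 6556 on ND and 260 to 775 on HFD. Lymphocyte and plasma cell markers, 5 of 10 with values, summed to 221 to 660 against 15.5 to 150.5, and their defining Cd3e and Jchain had at most 5 reads in any library. Mural and fibroblast markers, 14 in number, summed to 1044 to 11055 against 1098 to 3638, and 8 lymphatic endothelial markers to 14848 to 33572 against 4854 to 15962. DESeq2 called Cnn1 of the mural list and Pdpn of the lymphatic list, both lower, where it called 0.658% of all genes lower. ND 3 held the highest sum of the epithelial, macrophage, lymphocyte and mural markers. Its part in the values that follow was not tested, but without ND 3 the log2 differences described below were 1.38 for Hspa5, 0.54 for Hsp90b1, 0.57 for Pdia6, 1.21 for Creld2 and 2.12 for Ppp1r15a. In bulk RNA of this kind, fewer cells of a type and less RNA per cell cannot be told apart.

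Of the 10 members, 8 had a positive HFD minus ND difference, and the median of the 10 was 0.62 on the log2(normalized count + 1) scale, beside 0.05 for all 15655 genes tested. None of the 10 passed an adjusted p of 0.05 in limma, and neither did any other gene, so 0% of tested genes were called and the smallest adjusted p was 0.276. In 5 members, the diets did not overlap, with all 3 HFD libraries above all 3 ND libraries, against 8.12% of all tested genes. One member, Slc7a11, had all HFD libraries below all ND libraries, against 5.93%. The same 5 members were those with an unadjusted limma p under 0.05, a rule that 5.56% of all genes met in the higher and 2.36% in the lower direction. DESeq2 on the recovered reads was the one tool that called members, Ppp1r15a and Hspa5, both higher, where it called 1.08% of genes higher and 0.658% lower. With 3 mice a diet the smallest exact two-sided permutation p for a single gene is 0.1.

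**Figure D2:**
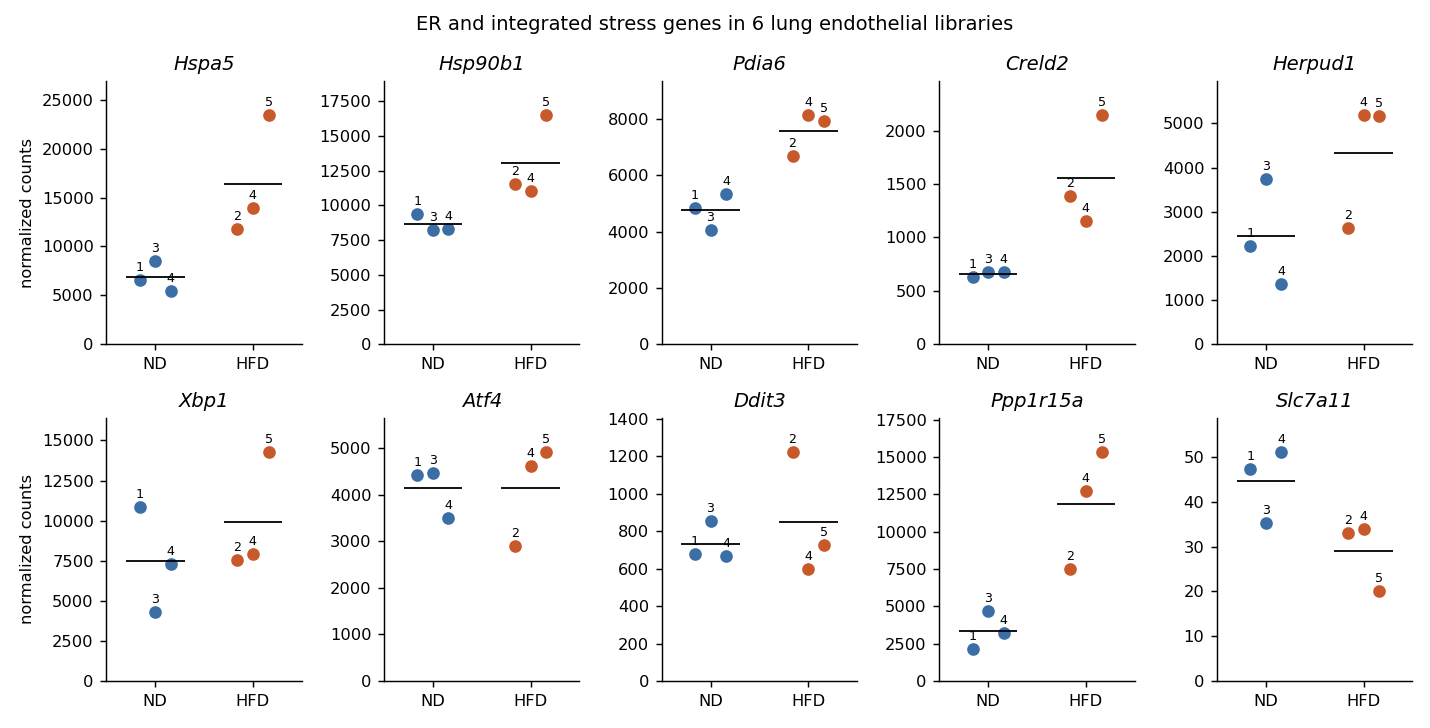
Normalized counts of each member in every library on linear axes from 0, with ND in blue and HFD in orange, 1 point per mouse with its number and a line at the mean of each diet. Hspa5, Hsp90b1, Pdia6, Creld2 and Ppp1r15a have all HFD points above all ND points, Slc7a11 has them below, and the other 4 overlap.

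Hspa5, which encodes BiP, the main Hsp70 chaperone of the ER lumen and the protein that holds the sensors inactive, was higher on HFD in every library. The ND mice 1, 3 and 4 had 6562, 8463 and 5492 normalized counts, and the level was 11805 in HFD 2, 13914 in HFD 4 and 23414 in HFD 5. The diets did not overlap, and the lowest HFD library lay above the highest ND library. The means were 6839 ± 1505 on ND and 16378 ± 6185 on HFD (SD, n = 3 each). The log2 difference was 1.22 ± 0.30 (SE), with a 95% interval of 0.52 to 1.92 and a limma adjusted p of 0.472 (Benjamini-Hochberg over all genes). It ranked 143 of 15655 by p. DESeq2 gave 1.17 with an adjusted p of 0.0208, while edgeR's quasi-likelihood test gave an adjusted p of 0.508.

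Hsp90b1, which encodes GRP94, the Hsp90 chaperone of the ER, differed less. Normalized counts were 9368, 8193 and 8325 for ND 1, 3 and 4, and 11525, 11047 and 16484 in HFD 2, 4 and 5. All HFD libraries lay above the ND libraries, which were close to each other, and HFD 5 stood above the other HFD libraries. The log2 difference was 0.57 ± 0.20 (SE; limma adjusted p = 0.570) between means of 8629 ± 643 and 13019 ± 3011 (SD, n = 3 each). Of its exonic bases, 15.7% are shared with other annotated genes, among them 1810014B01Rik on the opposite strand, and whether strand was used in counting was not given in the sources used here.

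Pdia6, a protein disulfide isomerase that also acts on IRE1, had the smallest spread on HFD of the 4 lumenal members on the log2 scale, with an SD of 0.16. It stood at 4853, 4057 and 5346 normalized counts in the ND libraries in order of mouse number, and at 6669, 8130.3 and 7919 in the HFD libraries. The groups did not overlap, and here HFD 4 and not HFD 5 was the highest. The means were 4752 ± 650.1 and 7573 ± 789.7 (SD, n = 3 each), a log2 difference of 0.68 ± 0.20 (SE; limma adjusted p = 0.522).

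Creld2, a secreted and ER-resident protein with EGF-like domains that is known as an ER stress target, was nearly constant on ND at 626, 672 and 678 normalized counts. The HFD libraries held 1386, 1152 and 2142. Each HFD library was well above the ND libraries, and they differed more among themselves. The means were 659 ± 28.7 and 1560.1 ± 517 (SD, n = 3 each), a log2 difference of 1.19 ± 0.34 (SE; limma adjusted p = 0.509). DESeq2 gave an adjusted p of 0.0576, just above the threshold.

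These 4 genes of the ER lumen were also viewed together. Their mean log2 level, centred on each gene's mean, was −0.44, −0.44 and −0.49 in the ND libraries and 0.24, 0.29 and 0.84 in HFD 2, 4 and 5. Each of the 4 genes was already higher without overlap, so the mean had to separate the diets and adds nothing on that point. The means of the ND mice were close, although the single genes differed among them (ND 3 was highest for Hspa5 and lowest for Pdia6), and HFD 5 stood above the other HFD mice. HFD 5 was the highest of the 6 libraries for 6 of the 10 members, namely Hspa5, Hsp90b1, Creld2, Xbp1, Atf4 and Ppp1r15a, and the lowest for Slc7a11. Without HFD 5 the log2 differences were 0.93 for Hspa5, 0.39 for Hsp90b1 and 0.94 for Creld2. HFD 5 was also the deepest library.

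**Figure D3:**
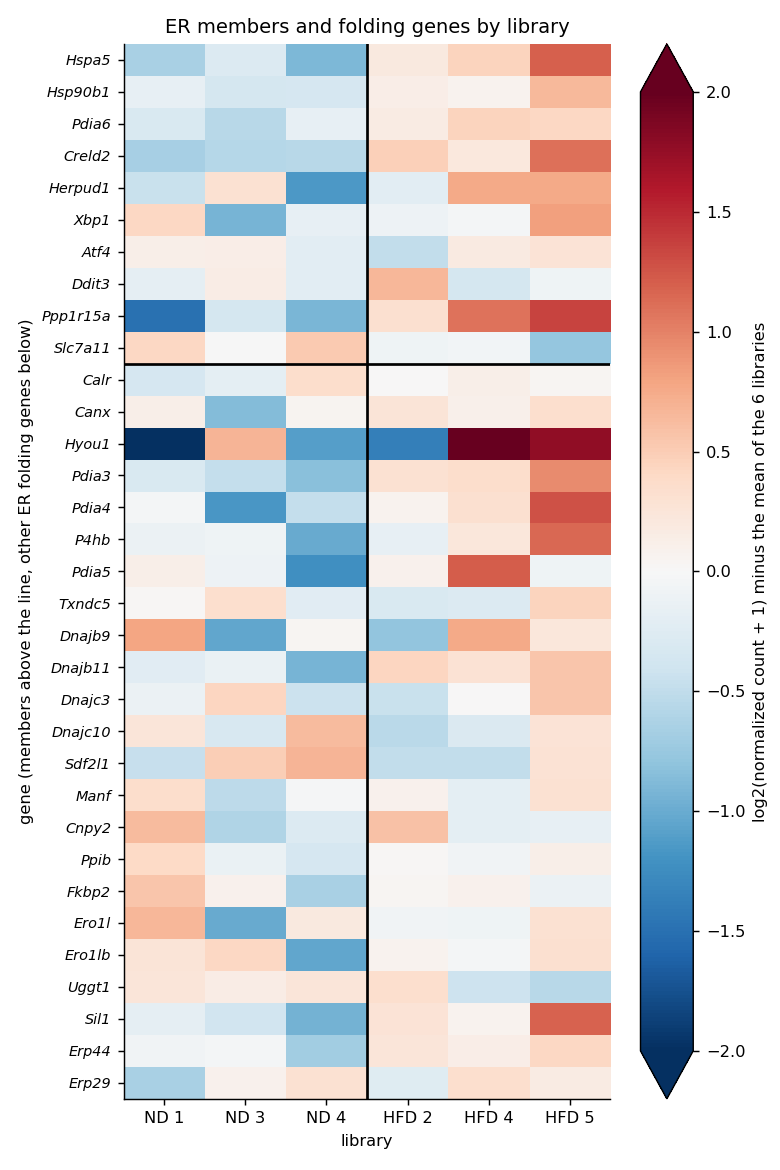
Log2(normalized count + 1) of the 10 members (above the line) and 23 other ER folding genes in each library, centred on the gene's mean over the 6 libraries, with colour for the difference in log2 units. Hspa5, Hsp90b1, Pdia6, Creld2 and Ppp1r15a change sign between the diets, whereas Xbp1, Atf4 and Ddit3 vary within each diet.

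Herpud1, an ER membrane protein of the degradation machinery and a target of both response arms, had a log2 difference of 0.87 ± 0.45 (SE; 95% interval −0.18 to 1.92; limma adjusted p = 0.659). Normalized counts were 2232, 3748 and 1368 for ND 1, 3 and 4, and 2622, 5184 and 5163 in HFD 2, 4 and 5. HFD 4 and HFD 5 were above all ND libraries, but HFD 2 lay below ND 3. The difference ranged from 0.51 without ND 4 to 1.24 without ND 3, and the exact two-sided permutation p was 0.2.

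Xbp1, the transcription factor whose mRNA is spliced by IRE1, overlapped widely between the diets. It stood at 10823, 4285 and 7283 normalized counts on ND and at 7558, 7890.3 and 14274 on HFD. ND 1 and HFD 5 were the high libraries, and the other HFD libraries lay inside the ND range. The log2 difference was 0.44 ± 0.40 (SE; 95% interval −0.49 to 1.37; limma adjusted p = 0.808), and it ran from 0.09 without ND 3 to 0.76 without ND 1. Gene counts do not separate the spliced from the unspliced form, so splicing was not measured.

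Atf4, whose protein level is set mainly by translation, had nearly equal means. The ND libraries held 4423, 4474 and 3508 normalized counts and the HFD libraries 2889.7, 4605 and 4914. The lowest value of all was HFD 2, and the highest was HFD 5. The means were 4135 ± 544 and 4136 ± 1091 (SD, n = 3 each), and the log2 difference was −0.03 ± 0.27 (SE; limma adjusted p = 0.989). Its 95% interval, −0.67 to 0.62, still allows a difference of the size seen for Hsp90b1, and the RNA level says nothing of ATF4 protein.

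Ddit3, which encodes the transcription factor CHOP, was high in 1 HFD library only. It stood at 677, 856 and 668 normalized counts in the ND libraries, 1223 in HFD 2, 601 in HFD 4 and 727 in HFD 5. HFD 4 was the lowest of all 6 libraries and HFD 2 the highest. The log2 difference of 0.15 ± 0.39 (SE; 95% interval −0.75 to 1.06; limma adjusted p = 0.95) became −0.14 without HFD 2. Of its exonic bases, 10.9% are shared with other annotated genes, including Gm4189 and Mars on the opposite strand.

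Ppp1r15a, the eIF2 alpha phosphatase subunit GADD34, had the largest difference of the 10 members. The ND mice 1, 3 and 4 had 2145, 4701 and 3179 normalized counts, and the level was 7494 in HFD 2, 12723 in HFD 4 and 15331 in HFD 5. Every HFD library exceeded every ND library. The means were 3341 ± 1286 and 11849 ± 3991 (SD, n = 3 each), a 3.55-fold ratio. The log2 difference was 1.84 ± 0.38 (SE), with a 95% interval of 0.95 to 2.72. Its limma adjusted p was 0.367, and it ranked 69 of 15655 by p. It ran from 1.55 without ND 1 to 2.14 without HFD 2, and DESeq2 gave 1.74 with an adjusted p of 0.00111.

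Within a library, ratios of normalized counts do not depend on the size factor, and several were computed after the values had been seen. Ppp1r15a was 0.485, 1.05 and 0.906 times Atf4 in the ND libraries and 2.59, 2.76 and 3.12 times in the HFD libraries. All 3 HFD ratios lay above the ND ratios, as did the Ppp1r15a values by themselves, so these ratios are not separate support. The ratio of Ppp1r15a to Ppp1r15b, the constitutive partner gene of the same phosphatase, was 3.11, 6.88 and 3.03 on ND and 20.1, 9.38 and 22.6 on HFD. By contrast the ratio of Ddit3 to Atf4, 0.153, 0.191 and 0.190 on ND and 0.423, 0.130 and 0.148 on HFD, overlapped. The ratio of Hspa5 to Calr, a lectin chaperone with the same promoter element, was 1.93, 2.28 and 1.00 on ND and 2.74, 2.99 and 5.36 on HFD. Hspa5 by itself was already higher without overlap. The ratio of Hspa5 to Hsp90b1, 0.700, 1.03 and 0.660 on ND and 1.02, 1.26 and 1.42 on HFD, overlapped between the diets, and so did that of Xbp1 to Hspa5, 0.506 to 1.65 on ND and 0.567 to 0.640 on HFD.

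**Figure D4:**
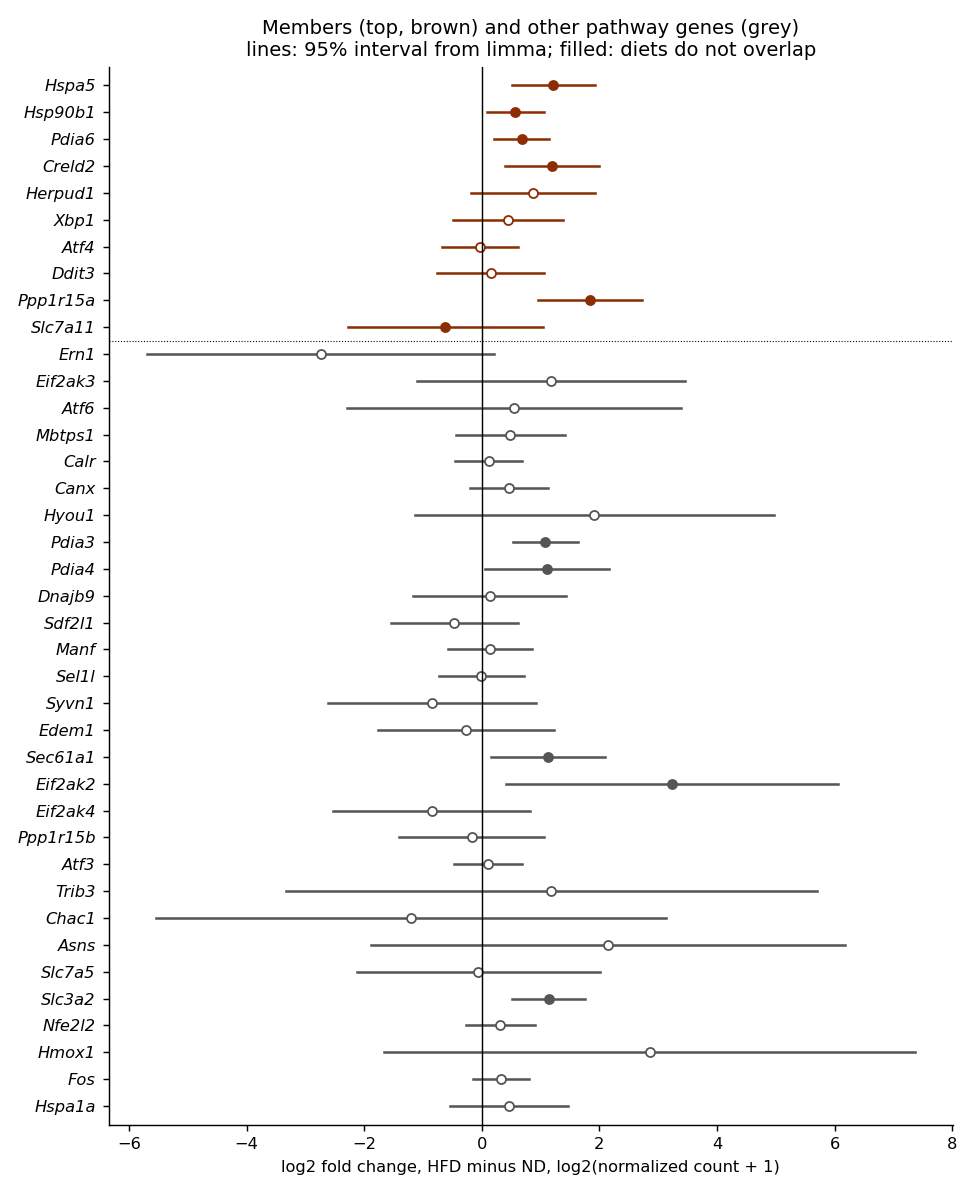
Log2 difference, HFD minus ND, of each member (brown) and of the named pathway genes (grey) on the log2(normalized count + 1) scale, with 95% limma intervals from 3 libraries a diet and filled points where the diets did not overlap. The intervals of Hspa5, Hsp90b1, Pdia6, Creld2 and Ppp1r15a lie above 0 and those of the other 5 members include it.

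Slc7a11, the light chain of the cystine-glutamate exchanger and a target of ATF4 and NRF2, was scarce in these cells. It stood at 47.2, 35.3 and 51.1 normalized counts on ND, which were 40, 33 and 43 reads, and at 33.0, 33.8 and 20.2 on HFD, which were 34, 42 and 28 reads. The diets did not overlap, and HFD was lower, but ND 3 and HFD 4 were within 2 normalized counts of each other. The log2 difference was −0.62 ± 0.71 (SE; 95% interval −2.28 to 1.04; limma adjusted p = 0.864). The summed reads, scaled by the size factors, gave an HFD to ND ratio of 0.643 with a 95% exact conditional interval of 0.488 to 0.845, which covers counting error only and not the spread between mice.

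The heavy chain that carries Slc7a11 and other amino acid transporters to the surface, Slc3a2, went the other way. It stood at 6229, 7249 and 6283 normalized counts on ND and at 10683, 13357 and 21047 on HFD. No HFD library overlapped an ND library. The log2 difference was 1.13 ± 0.27 (SE; limma adjusted p = 0.438; DESeq2 adjusted p = 0.0164). There were 132, 205 and 123 Slc3a2 counts for each Slc7a11 count on ND, against 324, 395 and 1044 on HFD. Slc3a2 was higher and Slc7a11 lower without overlap, so this ratio had to separate the diets and adds nothing on that point.

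Levels of different members were compared as normalized counts per kilobase of exon (GENCODE M21 exon union, GRCm38). The union ran from 1.37 kilobases for Creld2 to 13.9 for Slc7a11. Which transcript forms were present and how evenly these oligo(dT)-primed libraries covered them was not measured, so the order is approximate. On ND the order began with Xbp1 at 2298 ± 1008 per kilobase, Hsp90b1 at 2140.1 ± 159.6 and Atf4 at 1754 ± 231 (SD, n = 3 each). Hspa5 at 1617 ± 356, Pdia6 at 1269 ± 174, Ppp1r15a at 1138 ± 438 and Herpud1 at 1049.98 ± 516 came next. Creld2 at 482 ± 21.0, Ddit3 at 428 ± 62.1 and Slc7a11 at 3.20 ± 0.592 closed it. On HFD Ppp1r15a came first at 4035 ± 1359 per kilobase, followed by Hspa5 at 3873 ± 1462, Hsp90b1 at 3229 ± 747 and Xbp1 at 3050.3 ± 1165. Pdia6, Herpud1, Atf4, Creld2, Ddit3 and Slc7a11 followed, from 2022 ± 211 down to 2.08 ± 0.550. Ppp1r15a thus went from position 6 to position 1, while Atf4 went from 3 to 7 at the same level of 1754 per kilobase. On each diet, 3 of the 9 pairs of neighbours did not overlap between libraries. These were Hsp90b1 above Atf4, Herpud1 above Creld2 and Ddit3 above Slc7a11 on ND, and Xbp1 above Pdia6, Creld2 above Ddit3 and Ddit3 above Slc7a11 on HFD.

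The genes nearest in pattern were ranked by the root mean square difference of centred log2 values over the 6 libraries, among the 9885 genes whose mean reached 100 normalized counts. Nearest to Hspa5 were Tmbim6 at 0.083, Pcp4l1 at 0.11 and Fam192a at 0.122, and Creld2 ranked 52 at 0.238. Nearest to Ddit3 were Dcun1d5 at 0.043, Grk4 at 0.143 and Pcid2 at 0.145. With 6 libraries, close patterns can arise by number of genes alone, and nothing is read from them.

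The other genes of the pathway were counted list by list. Over all tested genes, 8.12% were higher and 5.93% lower without overlap, and the counts of each list stand beside these shares. Of 23 further ER chaperones and folding factors, 19 were higher and 4 lower on HFD, 5 higher without overlap, with a median log2 difference of 0.16. Those 5 were Pdia3, Pdia4, Dnajb11, Sil1 and Erp44. Pdia3, the disulfide isomerase that works on glycoproteins, stood at 11435, 10091 and 7904 normalized counts on ND and 17414, 18048 and 27199.8 on HFD. Its log2 difference was 1.08 ± 0.23 (SE; limma adjusted p = 0.408; DESeq2 adjusted p = 0.0179). Pdia4, a close relative, stood at 1199.9, 554 and 891 on ND and 1303, 1545 and 2988 on HFD. The other named genes of the list overlapped between the diets, with log2 differences of 0.46 ± 0.28 for Canx, 0.11 ± 0.24 for Calr, 0.14 ± 0.55 for Dnajb9, 0.14 ± 0.30 for Manf and −0.47 ± 0.46 for Sdf2l1 (SE each). Hyou1, the ER Hsp110 chaperone, was low, with 5.91 to 59.9 normalized counts on ND and 13.6 to 208.6 on HFD, a log2 difference of 1.91 ± 1.30 (SE). The median of the list depended on single mice, and it was 0.46 without ND 1.

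The degradation genes showed no common direction, with 9 higher and 11 lower of 20 tested and a median of −0.06 that was 0.05 without HFD 4. Ufd1 was higher and Herpud2 lower without overlap, which is near the shares over all tested genes. The core ligase pair had log2 differences of −0.01 ± 0.31 for Sel1l, the scaffold, and −0.85 ± 0.75 for Syvn1, the ubiquitin ligase (SE each). Among 22 genes of translocation and glycosylation, 14 were higher and 8 lower, with Sec61a1, Rpn2, Stt3a and Stt3b higher without overlap. The median of 0.17 was −0.03 without ND 3, 0.35 without ND 1 and 0.05 with equal column totals. Sec61a1, the channel through which proteins enter the ER, stood at 487, 310.0 and 594 normalized counts on ND and 933, 755 and 1305 on HFD. The 9 sensors and transducers had 7 higher and 2 lower, and 1, Creb3, without overlap. Ern1 stood at 178, 477 and 358 on ND and 218, 5.64 and 69.8 on HFD, and its log2 difference of −2.74 ± 1.26 (SE; limma adjusted p = 0.644) became −1.33 without HFD 4. Eif2ak3 had a log2 difference of 1.18 ± 0.97 (SE) that was 0.11 without ND 1 and 0.49 with edgeR. Atf6 had 0.54 ± 1.21 (SE), but −0.96 without ND 3 and −0.37 with edgeR, so no direction is given for it. The median of the 9 was 0.49, and it was 0.10 without ND 3 and 0.08 with DESeq2.

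In the eIF2 group of kinases, eIF2, eIF2B and related genes, 9 of 16 were higher and 7 lower. Among the 16 were the phosphatase genes Ppp1ca and Ppp1cc, and Dnajc3, which was also counted with the folding factors. The median of 0.25 ran from 0.14 without HFD 5 to 0.39 without HFD 2. Higher without overlap were Eif2ak2, Eif2b4 and Ppp1ca, and lower without overlap were Eif2s3x and Ppp1cc. Ppp1cc and Ppp1ca encode catalytic subunits of protein phosphatase 1, the enzyme that GADD34 recruits. Ppp1cc stood at 1924, 1374 and 1607 normalized counts on ND and 567, 726 and 629 on HFD. Its log2 difference was −1.34 ± 0.31 (SE; limma adjusted p = 0.425), and DESeq2 gave −1.42 with an adjusted p of 0.00272. Ppp1ca stood at 8519, 5828 and 7099 on ND and 8991, 8748 and 10749.9 on HFD, a log2 difference of 0.42 ± 0.21 (SE; limma adjusted p = 0.654). Eif2ak2, the kinase PKR that senses double-stranded RNA, stood at 16.5, 51.3 and 594 normalized counts on ND and 909, 782 and 632 on HFD. ND 4 lay close to the HFD libraries and far from the other ND libraries, and the log2 difference of 3.23 ± 1.20 (SE) ran from 2.12 without ND 1 to 4.66 without ND 4. On the reads it was 1.75 with edgeR (adjusted p = 0.715) and 1.74 with DESeq2 (adjusted p = 0.52). The targets of ATF4 and CHOP did not share a direction, with 16 higher and 12 lower of 28 tested and a median of 0.05 that was −0.05 with equal column totals or without HFD 2. Atf5 and Slc3a2 were higher and Psph and Nupr1 lower without overlap, near the shares of 8.12% and 5.93% over all tested genes. Atf3, a stress factor of the same family, stood at 6925, 8748 and 9813 normalized counts on ND and 6695, 10679.9 and 10270.3 on HFD, with wide overlap. Trib3 and Chac1, commonly read targets of CHOP and ATF4, were low and scattered, at 2.38 to 208 and 1.18 to 70.6 normalized counts on ND and 4.86 to 302 and 0 to 23.0 on HFD.

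The median of 12 cystine, glutathione and NRF2 genes was 0.19, with 8 higher and 4 lower, but it was −0.15 with edgeR, −0.16 with DESeq2 and −0.01 without ND 4. Gss and Slc3a2 were higher without overlap. Of 12 heat shock genes outside the ER, which are cytosolic apart from the mitochondrial Hspd1 and Hspe1, 9 were higher and 3 lower. Their median was 0.46, and 0.77 without ND 3. Hspa8, Dnaja1, Dnajb1 and Hspd1 were higher without overlap, and Hspa1b and Hsp90aa1 lower. DESeq2 called Hspa8, with a log2 difference of 1.12 and an adjusted p of 0.00987. Of 17 immediate early genes, which culture and cell isolation are known to raise, 9 were higher and 8 lower with a median of 0.00 that was 0.32 without HFD 2, and Egr1 was lower without overlap. Fos stood at 29014 to 40702 normalized counts on ND and 33789 to 52756 on HFD. In none of these lists did a gene pass an adjusted p of 0.05 in limma.

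**Figure D5:**
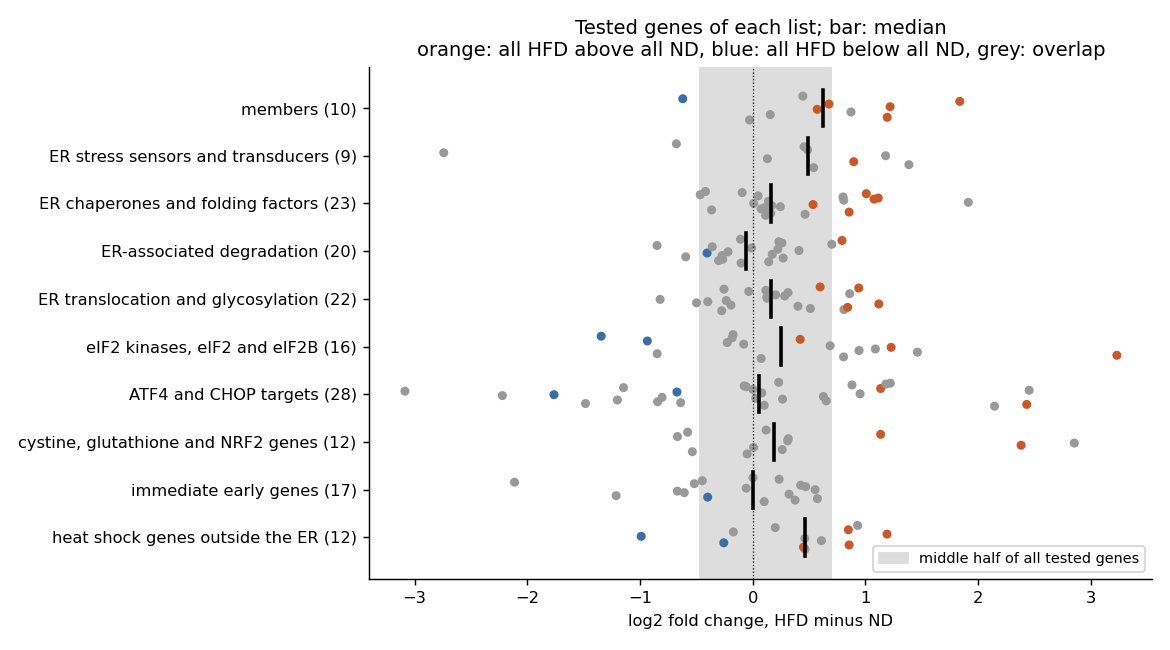
Log2 difference, HFD minus ND, of each tested gene in the pathway lists, 1 point per gene and a bar at the median of the list, on the log2(normalized count + 1) scale. Orange and blue points have all HFD libraries above or below all ND libraries, and the grey band, −0.47 to 0.69, holds the middle 50% of all tested genes. The members have a median of 0.62 and all tested genes one of 0.05. The degradation genes and the ATF4 and CHOP targets have medians of −0.06 and 0.05, and each list has genes on both sides of 0.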

How the data were processed

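RNA of 6 libraries of 500 cells each was primed with oligo(dT), PCR-amplified and read on a NextSeq sequencer, per the labels' protocols, which mention no molecular identifiers. The tools named, per the submitters' processing notes, were HTSeq 0.6.1, DESeq2, SAMtools 0.1.19, Bowtie 1.0.0, TopHat2 2.0.10, cutadapt and FastQC 0.11.7, and the build was GRCm38. Their roles, the gene annotation and strand use were not given in the sources used here. The authors deposited a normalized signal, that is, reads per gene over a size factor of the library. Within each column 100% of values were whole multiples of 1 read's value (tolerance 1e-06), so reads and depth were recovered. There were 0 unmatched columns.

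Log2(value + 1) of the 15655 genes whose mean reached 10 was compared between HFD and ND by limma 3.58.1 (R 4.3.3, two-sided), using a trend, no covariates and Benjamini-Hochberg adjustment over all tested genes at 0.05. This scale understates differences of low genes. Alternatives were pseudocounts of 0.5 and 5, minimum means of 1 and 50 or none, TMM scaling, equal column totals, leaving out each library, and edgeR 4.0.16, limma-voom and DESeq2 1.42.0 on the recovered reads. Intervals from reads cover counting error only.

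The members, lists and the rule for named genes were chosen with earlier results of these data known. The text names all 10 members and the pathway genes marked for naming in the lists. Dnajc3, Ero1b, Sftpc, Cd3e, Jchain, Cnn1, Pdpn and the genes of a list without overlap were named after their values were seen. Libraries of a diet are separate mice per the labels. Promoters were matched by symbol to RefSeq.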

Additional observations from a re-analysis of the deposited data

How the results depend on the processing

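Limma, edgeR and limma-voom called 0 genes at an adjusted p of 0.05, with 870 higher and 370 lower (limma), 1462 (edgeR) and 1311 genes (voom) at an unadjusted p under 0.05, and DESeq2 called 272, of which 2 were members. The cause was not tested. Hspa5, Hsp90b1, Pdia6, Creld2, Herpud1, Xbp1 and Ppp1r15a stayed positive and Slc7a11 negative under every alternative in which they were tested. The median of the members ran from 0.51 to 0.73. The medians of the pathway lists also moved, as given with each list, and with equal totals those of folding and translocation genes were 0.04 and 0.05, the eIF2 group 0.13 and degradation −0.17. Equal column totals lowered the median of all genes from 0.05 to −0.06. Atf4 turned from −0.03 to 0.02 without ND 1, 0.03 without ND 3 and 0.21 without HFD 2, and its lowest value was −0.17 without HFD 5. With equal totals it was −0.15. Ddit3 ran from −0.14 without HFD 2, a turn of sign, to 0.37 without HFD 4. Members higher without overlap numbered 5 to 7 and were 7 without HFD 2, but leaving out a library raises the share over all genes by construction, from 8.12% to 11.1% at the least and 15.5% at the most (14.4% without HFD 2). The count lower without overlap went from 1 to 0 at a minimum mean of 50, since Slc7a11 was then not tested. Thinning to equal depth was chosen after seeing the data. Depth limited Slc7a11, with 28 to 43 reads a library. No paired analysis was possible because the diets share only the number 4, which names different mice.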
